A study of Mus musculus with 12 samples.

Results

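The genes that carry recognition of bacterial lipopolysaccharide (LPS) from the extracellular carrier to the intracellular adaptors were followed here through 12 mouse mammary tumors, namely Lbp, Cd14, Ly96, Tlr4, Tlr2, Myd88, Ticam1, Ticam2 and Tirap. They were taken by gene symbol from the deposited table, which held all 9 members among its 750 genes. All 9 also passed the filter on low values (a normalized mRNA count of 20 or more in 3 or more tumors), as did 689 genes in all. The set was chosen by role in LPS recognition and with the normalized counts of these 12 tumors in view, those of Lbp against the other 8 genes. Their levels and fold changes are therefore given as a description, with standard errors but without a test of their own.

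LPS-binding protein, encoded by Lbp, is a secreted acute-phase protein best known from the liver that extracts LPS from bacterial membranes and hands it to CD14, a receptor without a signaling domain that is abundant on monocytes and macrophages. CD14 passes LPS to the complex of TLR4 and MD-2, the latter encoded by Ly96, whereas TLR2 recognizes bacterial lipoproteins and also uses CD14. At the plasma membrane the sorting adaptor TIRAP brings in MyD88, which leads to NF-κB and inflammatory cytokines. From endosomes the adaptor TRAM (Ticam2) brings in TRIF (Ticam1), which leads to IRF3 and type I interferon.

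The tumors were of the K14-Cre;Brca f/f Trp53 f/f model (Brca1 in the study's methods), in which Cre is driven by the keratin-14 promoter and deletes both genes in epithelial cells. Tumor chunks had been transplanted into the mammary fat pad of female FVB/129P2 mice, and all 12 tumors carried both deletions. Each of the 4 groups had 3 tumors. Vehicle mice received intraperitoneal DMSO in saline and an intratumoral injection of saline, both without drug. ADU-S100 mice received diluted DMSO (in saline by the labels, in PBS by the methods' list of groups) and 50 μg of ADU-S100, an agonist of the nucleic acid pathway protein STING, in 1 intratumoral injection of 40 μl on the first day. Olaparib mice received the PARP inhibitor olaparib intraperitoneally at 50 mg/kg daily together with intratumoral saline, and combination mice received both drugs. Tumors were harvested 3 days after treatment start, and 100 ng of RNA from a snap-frozen chunk of each was hybridized to an nCounter immune panel, in which bar-coded probes are counted without amplification. The age of the mice was not given in the sources used here, and transplants of 1 model share its genotype, so the tumors do not sample other Brca-deficient cancers.

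The deposited values had been scaled per tumor against control and housekeeping probes. The counts before scaling summed to between 106206 and 1519471 per tumor, and the scaling factors ranged from 0.589 to 10.5. Olaparib tumor 1517 stood apart, with the lowest total and the highest factor, and gave the lowest count before scaling of every member, from 5 counts for Ticam2 to 220 for Cd14. Epcam, the epithelial adhesion molecule, was counted at 4580 to 15843 in all 12 tumors. The labels number 3 tumors from 1251 to 1270 (1 vehicle and 2 combination tumors) and the other 9 tumors from 1506 to 1539, without saying what the numbers mean. Where the text says "without tumor 1517", that tumor was left out of the fit.

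Promoter sequence from RefSeq (GRCm38.p6) was at hand for 4 members, namely Tlr2, Tirap, Myd88 and Ticam1. A pair is shown, Myd88 as the adaptor whose combination tumors all lay above the vehicle tumors and Tlr2 as the receptor with the largest difference under olaparib. Each line gives the 250 bases before a transcript start, read 5′ to 3′ on the gene's own strand, which is the minus strand for both. Capitals mark matches to the motifs GGGNNNNNCC (κB, in Tlr2) and TTCNNNGAA or GAAANNGAAA (STAT and interferon-stimulated response element, in Myd88).
Myd88 (chr9:119340019-119340268): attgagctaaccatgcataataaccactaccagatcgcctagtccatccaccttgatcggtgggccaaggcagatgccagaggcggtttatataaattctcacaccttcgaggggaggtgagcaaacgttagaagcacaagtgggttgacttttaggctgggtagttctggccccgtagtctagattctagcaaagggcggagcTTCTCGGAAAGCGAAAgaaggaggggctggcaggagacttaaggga
Tlr2 (chr3:83841609-83841858): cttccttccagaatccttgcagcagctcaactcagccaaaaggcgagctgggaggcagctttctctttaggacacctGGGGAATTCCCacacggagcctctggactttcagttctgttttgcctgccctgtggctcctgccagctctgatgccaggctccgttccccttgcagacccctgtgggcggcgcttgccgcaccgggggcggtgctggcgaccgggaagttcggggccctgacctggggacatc
In Myd88, the STAT match lay 46 to 38 bases before the start and overlapped the interferon-stimulated response element match at 40 to 31 bases. In Tlr2, overlapping κB matches spanned 173 to 163 bases before the start. The annotated Tlr2 gene reaches position 83841824, so most of its window, with these matches, lies within the gene. The windows of Tirap and Ticam1, not shown, also held κB matches. Both strands were searched for these motifs and for TTGCNNAA (C/EBP) and TGANTCA (AP-1). Over 32851 promoter windows of the same length, the κB motif was present in 45.8%, the STAT motif in 7.02% and the interferon-stimulated response element in 2.98%, whereas C/EBP (9.56%) and AP-1 (6.75%) had no match in either sequence shown. A match describes letters in the window and is neither a binding site nor a cause.

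Lbp was the member with the widest spread between groups. It was highest in combination tumors and lowest in olaparib tumors. The normalized mRNA count of Lbp was 9793, 6272 and 5144 in vehicle tumors 1269, 1529 and 1536, 3429, 2450 and 8740 in ADU-S100 tumors 1506, 1512 and 1513, 1255, 1645 and 5278 in olaparib tumors 1510, 1517 and 1521, and 12116, 14991 and 9722 in combination tumors 1251, 1270 and 1539. Every combination tumor lay above every tumor given a single drug, while the lowest combination tumor lay just below the highest vehicle tumor. ADU-S100 tumor 1513 and olaparib tumor 1521 were each far above the other two tumors of their group, and tumor 1521 placed the olaparib group within the vehicle range by a small margin. The group means were 7070 ± 2425 for vehicle, 4873 ± 3385 for ADU-S100, 2726 ± 2219 for olaparib and 12276 ± 2638 for the combination (SD, n = 3 each). In the order combination, vehicle, ADU-S100, olaparib, each neighboring pair of groups overlapped. In bulk tumor RNA, fewer cells of a type and less RNA per cell cannot be told apart.

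On the log2 scale (log2 of the normalized count plus 1), Lbp in combination tumors was higher than in vehicle tumors by 0.83 (SE 0.61), than in ADU-S100 tumors by 1.53 (SE 0.61) and than in olaparib tumors by 2.45 (SE 0.61), the last a 5.45-fold difference. Against vehicle, Lbp differed by -1.62 (SE 0.61) in olaparib tumors and by -0.70 (SE 0.61) in ADU-S100 tumors. The ADU-S100 difference was -0.31 without ADU-S100 tumor 1512 and -1.23 without tumor 1513. The interaction (the ADU-S100 difference among olaparib-treated tumors minus that among the others) was 3.15 (SE 0.87) for Lbp. Without tumor 1517 the olaparib difference from vehicle was -1.40, the combination difference from olaparib 2.23 and the interaction 2.93. Without tumor 1521 these values were -2.24, 3.07 and 3.77.

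Other measures moved with Lbp. The 3 tumors numbered 1251 to 1270 had Lbp counts of 9793 to 14991, all above the 1255 to 9722 of the other 9 tumors. With this number series as a block, the combination differences were 0.62 from vehicle, 1.11 from ADU-S100 and 2.03 from olaparib. Over the 12 tumors, Lbp had a Pearson r of -0.71 with the log2 scaling factor (-0.64 without tumor 1517), against a median of 0.59 over all genes tested. With the log2 factor as a covariate, the ADU-S100 difference from vehicle was -0.24, the olaparib difference -1.08 and the combination difference from olaparib 1.86. The part of number series and depth in the Lbp differences was not tested.

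**Figure D1:**
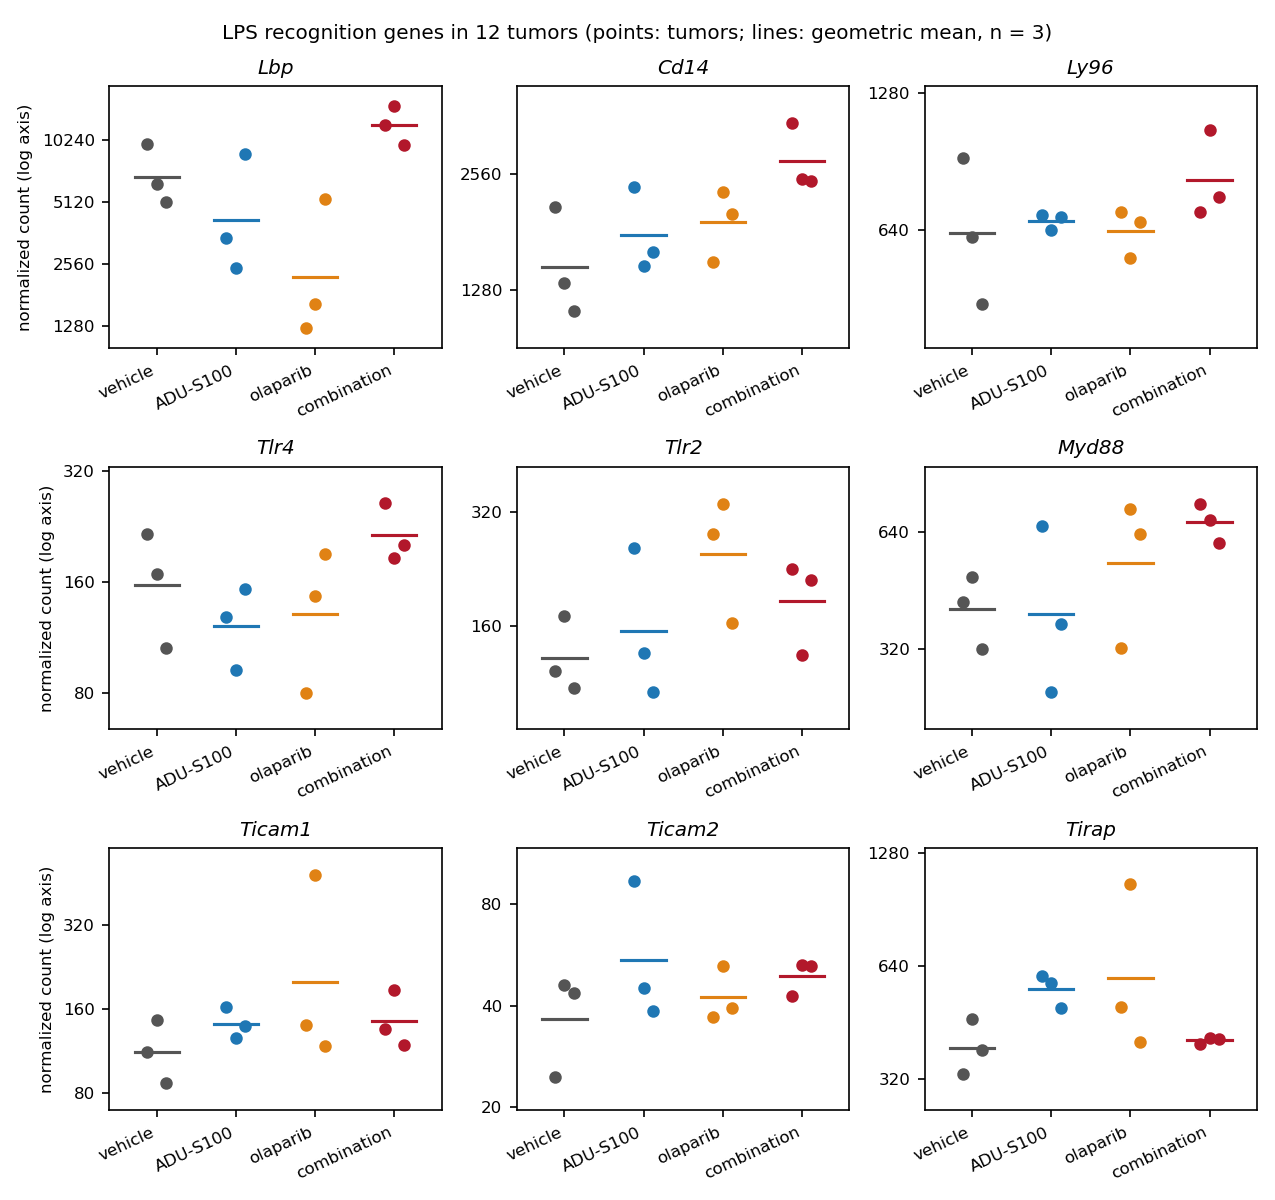
Normalized mRNA counts of the 9 genes (log axes, a scale of its own per panel) in the 12 tumors by treatment group. Points are tumors and lines are geometric means of 3 tumors. The 3 combination tumors sit between 9722 and 14991 for Lbp and between 2460 and 3465 for Cd14, and Tirap lies between 398 and 412 in the combination against up to 1058 in olaparib tumor 1517.

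Cd14, the co-receptor, was highest in the combination and lowest in vehicle tumors. Its normalized count was 2106, 1338 and 1132 in the vehicle tumors, 2376, 1479 and 1611 in the ADU-S100 tumors, 1516, 2305 and 2016 in the olaparib tumors, and 3465, 2483 and 2460 in the combination tumors, in the tumor order used for Lbp. The combination tumors lay above the 9 other tumors without overlap. Cd14 in the combination was higher than in vehicle tumors by 0.91 (SE 0.39) on the log2 scale, or 1.88-fold, and by 0.46 with TMM factors. The corresponding differences were 0.63 (SE 0.39) from ADU-S100 and 0.53 (SE 0.39) from olaparib, and 0.29 and 0.19 with the tumor number series as a block. Each single drug differed less from vehicle, with 0.28 (SE 0.39) for ADU-S100 and 0.38 (SE 0.39) for olaparib, and both signs depended on the scaling (-0.36 and -0.11 with TMM factors). Cd14 and the log2 scaling factor had an r of 0.00.

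Ly96, which encodes the LPS-binding subunit MD-2, was counted at 919.5, 618 and 441 in vehicle tumors, 689, 640.5 and 683 in ADU-S100 tumors, 701, 555 and 665 in olaparib tumors, and 699.9, 1059 and 756 in combination tumors. The vehicle tumors alone covered most of this range. The combination tumors lay just above the ADU-S100 tumors, by 0.30 (SE 0.37), or by -0.04 with the number series as a block, and overlapped the other groups. Ly96 in the combination was 0.39 (SE 0.37) above vehicle as deposited, 0.13 without vehicle tumor 1536 and -0.06 with TMM factors.

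Tlr4, the signaling receptor for LPS, followed the order of Lbp at its upper end. Its counts were 216, 168 and 106 in vehicle tumors, 128, 92.3 and 153 in ADU-S100 tumors, 79.9, 147 and 190.3 in olaparib tumors, and 262, 185 and 201 in combination tumors. The combination tumors lay above all ADU-S100 tumors, by 0.80 (SE 0.44), and overlapped the olaparib tumors, from which they differed by 0.70 (SE 0.44). With the number series as a block these differences were 0.53 and 0.43. Against vehicle, Tlr4 differed by 0.45 (SE 0.44) in the combination, -0.36 (SE 0.44) under ADU-S100 and -0.26 (SE 0.44) under olaparib. The olaparib difference was 0.09 without olaparib tumor 1510, and the ADU-S100 difference was -0.13 without vehicle tumor 1269. The combination difference from vehicle was 0.17 without vehicle tumor 1536 and 0.02 with TMM factors. Only 14 counts before scaling stood behind the Tlr4 value of tumor 1517.

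Tlr2, the receptor for lipoproteins, had its highest group mean under olaparib. It was counted at 121, 169 and 110.1 in vehicle tumors, 256, 136 and 107 in ADU-S100 tumors, 279, 335 and 163 in olaparib tumors, and 225, 134 and 212 in combination tumors. All neighboring groups in its order overlapped. The olaparib tumors were 0.91 (SE 0.45) above vehicle, or 1.88-fold, and 0.69 above vehicle without tumor 1517. The combination tumors were 0.50 (SE 0.45) above vehicle. Tlr2 thus had its largest difference in the group with the lowest Lbp, and its r with Lbp over the 12 tumors was -0.54 as deposited. Tlr2 had an r of 0.63 with the log2 scaling factor (0.41 without tumor 1517). Its r with Lbp was -0.05 once all tumors had been brought to 1 common median (same-median scaling) and -0.06 without tumors 1510 and 1517.

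Among the adaptors, Myd88, shared by TLR2 and TLR4, was higher in all combination tumors than in all vehicle tumors. Its counts were 421, 489 and 320.0 in vehicle tumors, 664, 248 and 371 in ADU-S100 tumors, 321, 734 and 634 in olaparib tumors, and 754, 688 and 600.2 in combination tumors. The combination tumors were close to each other, whereas the single-drug tumors spread from below the vehicle range or its lower end to well above it. Myd88 differed from vehicle by 0.74 (SE 0.46) in the combination, 0.39 (SE 0.46) under olaparib and -0.04 (SE 0.46) under ADU-S100. The olaparib difference was 0.16 without tumor 1517, 0.75 without tumor 1510 and 0.02 after same-median scaling, and the ADU-S100 difference was 0.30 without tumor 1512. The combination exceeded ADU-S100 by 0.78 (SE 0.46). Under every scaling run (as deposited, same median, quantile, TMM), the combination difference of Myd88 from vehicle was between 0.38 and 0.75.

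Tirap, the sorting adaptor for MyD88, was counted at 332, 464 and 382 in vehicle tumors, 604, 579.6 and 495 in ADU-S100 tumors, 499, 1058 and 402 in olaparib tumors, and 398, 412 and 411 in combination tumors. The combination tumors lay within the vehicle range, and all ADU-S100 tumors lay above both groups. ADU-S100 tumors were 0.52 (SE 0.40) above vehicle and combination tumors -0.45 (SE 0.40) from ADU-S100 tumors. The olaparib difference from vehicle was 0.62 (SE 0.40) and 0.20 without tumor 1517. Tirap had an r of 0.97 with the log2 scaling factor (0.93 without tumor 1517). With that factor as a covariate its differences were 0.12 for ADU-S100 from vehicle, 0.15 for olaparib from vehicle and -0.01 for the combination from ADU-S100.

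Ticam1, the adaptor TRIF, was counted at 112, 146 and 86.6 in vehicle tumors, 162, 126 and 138 in ADU-S100 tumors, 140.3, 482 and 118 in olaparib tumors, and 135, 187 and 119 in combination tumors. Tumor 1517 stood far above the other 11 tumors, which lay between 86.6 and 187. The olaparib difference from vehicle was 0.83 (SE 0.52) and 0.20 without tumor 1517. Ticam2, the bridging adaptor TRAM, was the member with the lowest counts, at 24.6, 46.1 and 43.6 in vehicle tumors, 94.0, 45.2 and 38.5 in ADU-S100 tumors, 37.0, 52.4 and 39.5 in olaparib tumors, and 42.9, 52.8 and 52.5 in combination tumors. Apart from ADU-S100 tumor 1506 at 94.0, the groups overlapped throughout. The combination differed from vehicle by 0.36 (SE 0.52) for Ticam1 and 0.41 (SE 0.43) for Ticam2, or by 0.18 without combination tumor 1270 and 0.13 without vehicle tumor 1269. Ticam1 had an r of 0.83 with the log2 scaling factor (0.48 without tumor 1517).

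Across the panel, limma (Benjamini-Hochberg adjusted p below 0.05 over 689 genes) called 0 genes and 0 members in each of the 8 comparisons, a background of 0.0% throughout. The edgeR quasi-likelihood test on the counts before scaling likewise called 0 genes, with the authors' factors and with TMM factors. At an unadjusted p below 0.05, limma had 53 genes for the combination against vehicle, 33 for ADU-S100 against vehicle, 50 for olaparib against vehicle, 63 for the combination against ADU-S100, 50 for the combination against olaparib and 75 for the interaction. It had 21 genes for tumors given ADU-S100 against those not given it and 52 for olaparib given against not given. The corresponding edgeR numbers with the authors' factors were 52, 41, 84, 58, 91, 125, 21 and 45, and with TMM factors they were 62, 35, 54, 115, 98, 99, 37 and 71. When olaparib tumor 1521, the olaparib tumor with the highest Lbp, was left out, limma called 55 genes for olaparib against vehicle (7.98%), 54 for the combination against olaparib (7.84%) and 86 for the interaction (12.5%). Of the 9 members, 1 (Lbp) was among the genes called in each. That fit left the olaparib group with 2 tumors, and nothing is read from the call of Lbp, whose values chose the members.

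Non-overlap of 3 tumors with 3 was frequent on this panel. For the combination against vehicle, 2 of 9 members were higher without overlap (Cd14 and Myd88) beside 18.4% of all genes, and 0 of 9 were lower beside 1.6%. All 9 members had a positive fold change there, with a median of 0.45 beside 0.22 over all genes, of which 65.3% were positive. Same-median scaling moved the all-gene median to -0.05. Tirap then turned negative and the combination and vehicle tumors overlapped for Cd14 and Myd88 too, while 10% of all genes were then higher and 6.97% lower without overlap. Quantile or TMM scaling turned Ly96, Ticam2 or Tirap negative in this comparison.

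For ADU-S100 against vehicle, 1 member was higher without overlap (Tirap) beside 13.9% of all genes and 0 were lower beside 1.02%. The members' median was 0.24 beside 0.44 over all genes, and 6 of 9 were positive beside 78.2% of all genes. With each tumor at the same median, which put the all-gene median at -0.05, Cd14, Ly96, Tlr2 and Ticam1 became negative. For olaparib against vehicle, 0 members were higher without overlap beside 3.77% and 0 were lower beside 1.02%. The members' median was 0.38 beside 0.45 over all genes, and Lbp and Tlr4 were the 2 negative members (Tlr4 not without tumor 1510). Without tumor 1517 the members' median was 0.16 beside 0.09. Same-median scaling, with an all-gene median of 0.08, added Ly96 and Ticam2 to them. Relative to the all-gene median, Lbp stood at -2.07 in this comparison and Tlr2 at 0.46.

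For the combination against ADU-S100, 4 members were higher without overlap (Lbp, Cd14, Ly96 and Tlr4) beside 10.4% of all genes, and 1 was lower (Tirap) beside 20.9%. For the combination against olaparib, 2 members were higher (Lbp and Cd14) beside 11.0% and 0 were lower beside 1.74%. With each tumor at the same median, Cd14, Tlr4, Tlr2 and Myd88 were higher in the combination than in ADU-S100 tumors without overlap, beside 17.3% of all genes, whereas Lbp, Ly96 and Tirap overlapped, beside 15.7% of genes that were lower. Between the combination and olaparib tumors, Lbp was then higher beside 7.69% of all genes, Cd14 overlapped, and Tirap was lower without overlap (-0.45) beside 8.85%. The comparisons share the combination or the vehicle tumors and are not independent of each other.

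**Figure D2:**
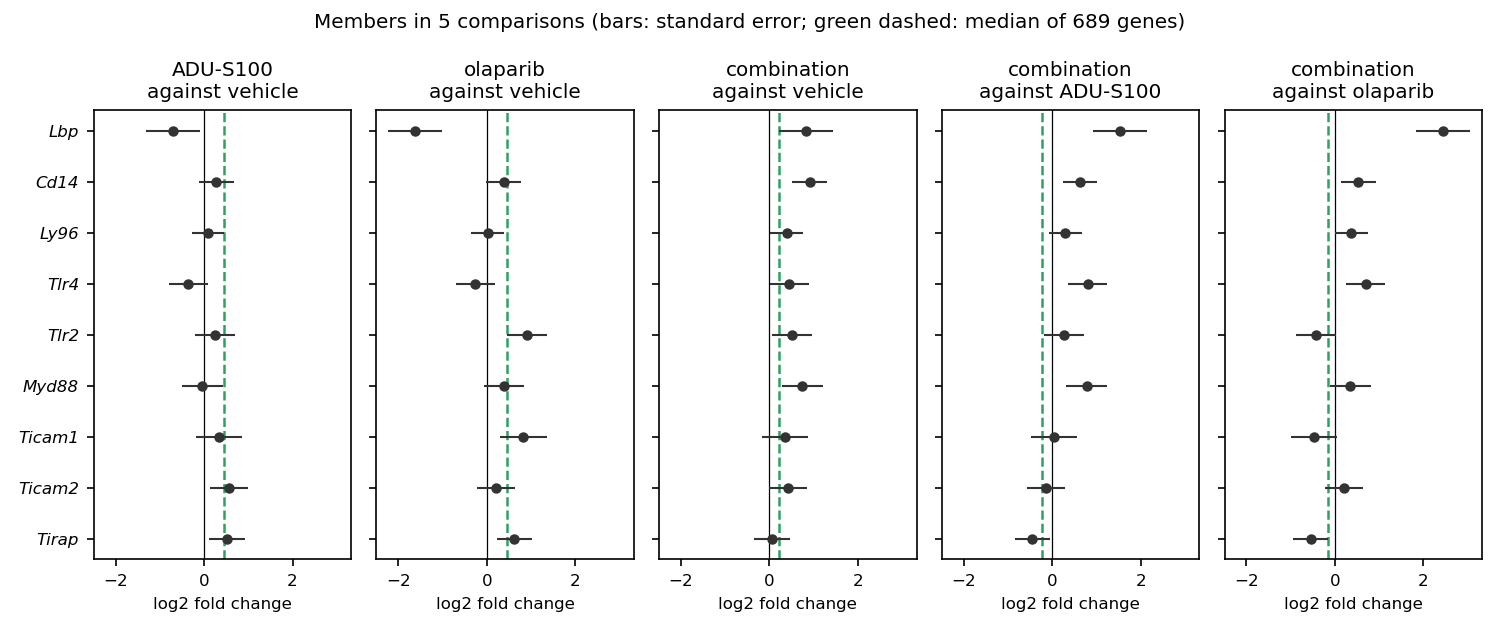
Log2 fold changes of the 9 genes in 5 comparisons (points) with standard errors (bars) from the fit over 12 tumors. The green dashed line is the median of 689 genes. Lbp lies at -1.62 for olaparib against vehicle and at 2.45 for the combination against olaparib, farther from 0 than the other 8 genes in both.

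The carrier was then set against the receptor and adaptor genes within each tumor, as the log2 count of Lbp minus the mean log2 count of the 8 other genes. The tumor's scaling factor almost cancels in such a ratio, but the ratio can still follow depth. Lbp had an r of -0.71 with the log2 factor, and the 8 other genes from -0.41 (Tlr4) to 0.97 (Tirap). Olaparib tumor 1517, with the highest factor, had the lowest ratio. The part of depth in the ratios was not tested. The absolute size of the ratio depends on how well each probe is captured, so it was compared between tumors and was not read as relative abundance. The log2 ratio was 5.24, 4.49 and 4.66 in vehicle tumors, 3.22, 3.37 and 5.09 in ADU-S100 tumors, 2.27, 1.92 and 4.18 in olaparib tumors, and 5.09, 5.45 and 4.90 in combination tumors. All 3 olaparib tumors lay below all vehicle and all combination tumors, and ADU-S100 tumor 1513 lay among the vehicle and combination tumors. Group means were 4.80 ± 0.39 for vehicle, 3.89 ± 1.04 for ADU-S100, 2.79 ± 1.22 for olaparib and 5.15 ± 0.28 for the combination (SD, n = 3 each).

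All ratios share Lbp, whose values were in view when the genes were chosen, so they are a description and not separate lines of evidence. Combination tumors lay above olaparib tumors for each of the 8 denominators, with mean differences between 1.75 (Tlr4) and 3.00 (Tirap), and for 67.5% of the 680 genes that are no members, with a median of 2.60. The olaparib tumors lay below all vehicle tumors for 6 of the 8 denominators, the exceptions being Ticam1 and Ticam2, and for 25.6% of the 680 genes. Lbp relative to Cd14 was 2.22, 2.23 and 2.18 in the vehicle tumors, a spread of 0.02 (SD, n = 3). In the combination this ratio was 1.81, 2.59 and 1.98, which lay on both sides of the vehicle tumors and outside their range, with a mean of 2.13 ± 0.41 and a mean difference of -0.08. In olaparib tumors it was 0.21 ± 1.03 and in ADU-S100 tumors 1.23 ± 1.05.

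**Figure D3:**
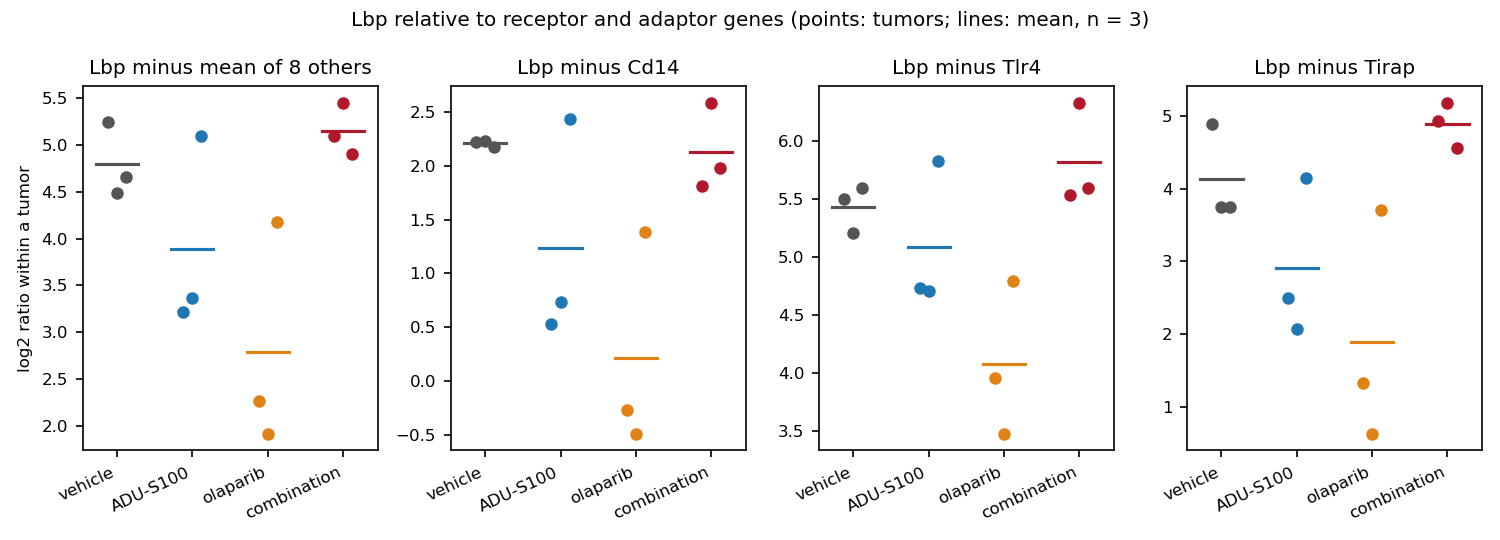
Log2 ratio of Lbp to the mean of the 8 receptor and adaptor genes and to Cd14, Tlr4 and Tirap within each tumor. Points are tumors and lines are means of 3. Combination tumors lie between 4.90 and 5.45 for the ratio to the mean of the 8 genes and olaparib tumors between 1.92 and 4.18.

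Correlations over the 12 tumors are given as descriptions. The tumors share treatment groups and differ in depth. Of the 8 genes, Tlr4 followed Lbp most closely, with a Pearson r of 0.79 (0.81 without tumors 1510 and 1517, and 0.76 with the group means removed). Ly96 had an r of 0.50, Cd14 of 0.38 and Myd88 of 0.34 with Lbp, while Ticam2 (-0.16), Ticam1 (-0.37), Tlr2 (-0.54) and Tirap (-0.69) had negative values. After same-median scaling the r with Lbp was higher for all 8 genes, at 0.91 for Tlr4, 0.76 for Ly96, 0.75 for Cd14, 0.74 for Myd88, 0.52 for Ticam2, 0.05 for Ticam1, -0.02 for Tirap and -0.05 for Tlr2. The median r with Lbp over the other 688 genes was -0.30 as deposited and 0.05 after same-median scaling.

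Among all genes kept, the sialyltransferase gene St6gal1, itself an acute-phase gene in liver, was most like Lbp, with an r of 0.96 as deposited and 0.97 after same-median scaling. St6gal1 was counted at 1357, 1057 and 1255 in vehicle tumors, 766, 576 and 1581 in ADU-S100 tumors, 499, 377 and 948 in olaparib tumors, and 1577, 1838 and 1729 in combination tumors. The high ADU-S100 tumor was 1513 and the high olaparib tumor 1521, as for Lbp. Litaf (0.90), the endosomal protein first named LPS-induced TNF factor, Lamp2 (0.89), a lysosomal membrane protein, and Tgfb2 (0.89), a TGF-β ligand, followed. At the other end were Il22ra1 (-0.90), a subunit of the IL-22 receptor, and Mapk8 (-0.89), the kinase JNK1. After same-median scaling St6gal1 (0.97), Litaf (0.94), Tgfb2 (0.94) and Ceacam1 (0.93) were among the closest, with Ifna1 (-0.90) and Il1rapl2 (-0.89) at the other end. Both were low. Il1rapl2 was at or below the background of its tumor (the median of the 30 lowest genes) in 6 of 12 tumors, and Ifna1 was under 2 times that background in 6.

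Cd14 had other companions. Its closest genes were Stat2 (0.88), Ddx58 (0.86) and Ifih1 (0.86), which encode an interferon signaling factor and the RNA sensors RIG-I and MDA5. After same-median scaling they were Tlr3, H2-D1 and Mr1 (0.90 each). For Tlr4, Cd9 (0.94), a tetraspanin, and Tnfrsf4 (0.92), the receptor OX40, were among the closest. With same-median scaling these included Cd9 (0.99) and Lamp2 (0.97), and Lamp2 was also close to Lbp as deposited.

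**Figure D4:**
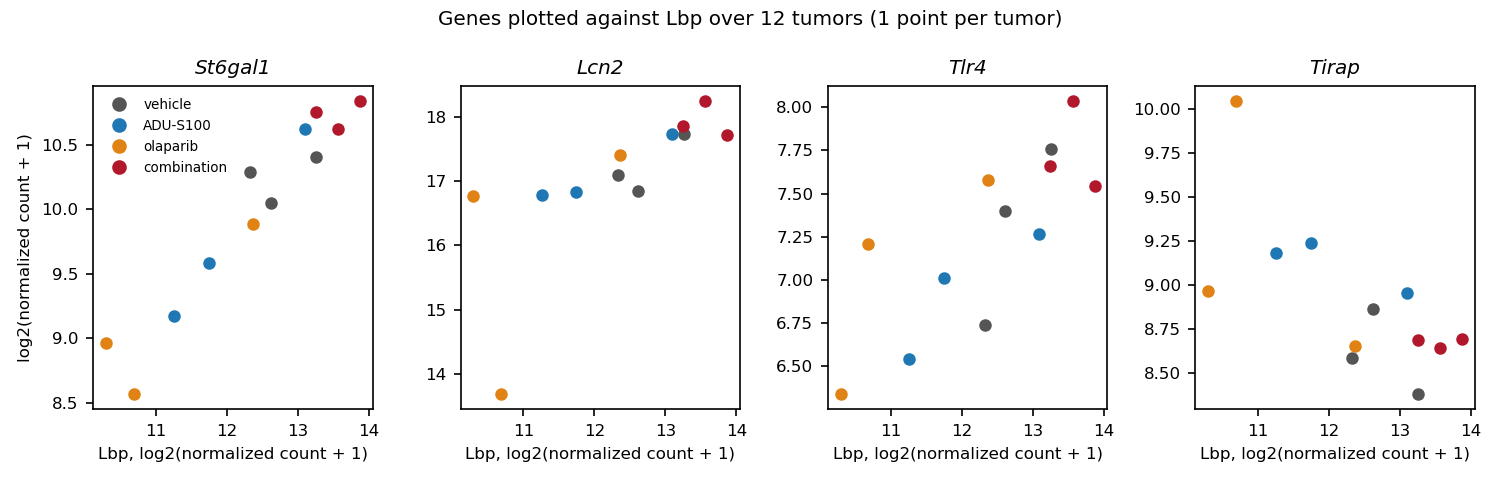
Log2(normalized count + 1) of St6gal1, Lcn2, Tlr4 and Tirap against that of Lbp, with 1 point per tumor colored by group. St6gal1 follows Lbp with an r of 0.96 and Tlr4 with 0.79, Tirap runs the other way with -0.69, and olaparib tumor 1517 lies far below the other tumors for Lcn2.

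The rest of the pathway was described from gene lists of 9 other Toll-like receptors and their partners, 24 signaling genes below the adaptors, 17 target genes of the MyD88 arm and 13 of the TRIF arm, of which 12 passed the filter. In no list did limma call a gene against vehicle, with 0 higher and 0 lower in each. Of the other Toll-like receptors, 8 of 9 were positive in the combination, with a median of 0.48 beside 0.22 over all genes, from Tlr9 at 0.83 (SE 0.59) to Tlr8 at -0.29 (SE 0.63). The signaling genes had a median of 0.23 in the combination and 0.40 under olaparib, near the all-gene medians of 0.22 and 0.45. Without tumor 1517 the olaparib median was 0.21 beside 0.09 over all genes. Nfkbia, the NF-κB inhibitor that NF-κB itself induces, was the highest signaling gene in the combination and under olaparib, at 0.83 (SE 0.48) and 1.60 (SE 0.48). Under ADU-S100 the kinase gene Ikbke was highest, at 1.42 (SE 0.63).

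The target genes of both arms had larger medians against vehicle than the 9 members; the difference between lists was not tested. All 17 MyD88-arm targets were positive under ADU-S100, with a median of 0.95 beside 0.44, while 12 of 17 were positive in the combination, with a median of 0.84 beside 0.22. Of all genes, 78.2% were positive under ADU-S100 and 65.3% in the combination. The extremes in the combination were Il12b, a subunit of IL-12, at 1.79 (SE 0.53) and Ptgs2, the inducible cyclooxygenase, at -1.32 (SE 0.91). In the combination 9 of the 17 were higher than vehicle without overlap, beside 18.4% of all genes. The 12 TRIF-arm targets, most of which any interferon signal also induces, were all positive in the combination with a median of 1.84 beside 0.22. The chemokine gene Cxcl9 was highest, at 3.13 (SE 0.84), and 5 of the 12 were higher without overlap, beside the same 18.4%. Their medians were 1.04 under olaparib and 0.71 under ADU-S100, beside 0.45 and 0.44 over all genes.

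Lbp belongs to the acute-phase proteins. Of 11 other such genes in the table, 8 passed the filter, and 4 of 8 were positive in the combination with a median of -0.03 beside 0.22 over all genes. Under olaparib 7 of 8 were positive with a median of 0.72 beside 0.45, and 74.6% of all genes were positive. Tumor 1517 carried much of this, since without it 5 of 8 were positive with a median of 0.04 beside 0.09 over all genes, of which 56.2% were then positive. The complement gene C4b went from 0.62 to -1.35 and the lectin pathway protease gene Masp1 from 0.76 to -0.42 when it was left out. Lcn2, the siderophore-binding lipocalin, was the negative gene in all tumors at -1.28 (SE 0.79), but stood at -0.14 without tumor 1517. Lcn2 was counted at 217625, 118171 and 140129 in vehicle tumors, 116688, 113218 and 217847 in ADU-S100 tumors, 111497, 13099 and 173281 in olaparib tumors, and 312652, 216831 and 237588 in combination tumors. As for Lbp, tumor 1513 was the highest ADU-S100 tumor and tumor 1521 the highest olaparib tumor, but the lowest value was that of tumor 1517. Cfb, complement factor B, was the highest of the list in the combination at 1.58 (SE 0.54). Saa1, a serum amyloid A gene and a classical acute-phase marker, was counted at 7.66 to 41.9 over the 12 tumors. It did not pass the filter and was under 2 times the background in most tumors. Its highest value, in tumor 1517, stood beside a background of 31.4 there.

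Genes that induce the acute phase were positive for 6 of 13 in the combination, with a median of -0.21 beside 0.22, and for 11 of 13 under ADU-S100, with a median of 0.76 beside 0.44. Of all genes, 65.3% were positive in the combination and 78.2% under ADU-S100. Il1b was highest in the combination at 0.89 (SE 0.58), and its receptor gene Il1r1 was lowest at -1.27 (SE 0.91). Il6, the main inducer of acute-phase genes in liver, was counted at 8.87 to 76.9 over the 12 tumors, and its highest value was in ADU-S100 tumor 1506, where Lbp was 3429. Other sensors and binders of bacterial products were positive for 9 of 9 genes under ADU-S100, with a median of 0.79 beside 0.44. In the combination 4 of 9 were positive, with a median of -0.11 beside 0.22. The antimicrobial peptide gene Camp was highest in both, at 1.61 (SE 0.54) and 1.13 (SE 0.54). Of the damage-associated ligands of TLR4, 3 genes were in the table, and the matrix gene Fn1 was lowest among them under olaparib, at -2.19 (SE 0.73).

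**Figure D5:**
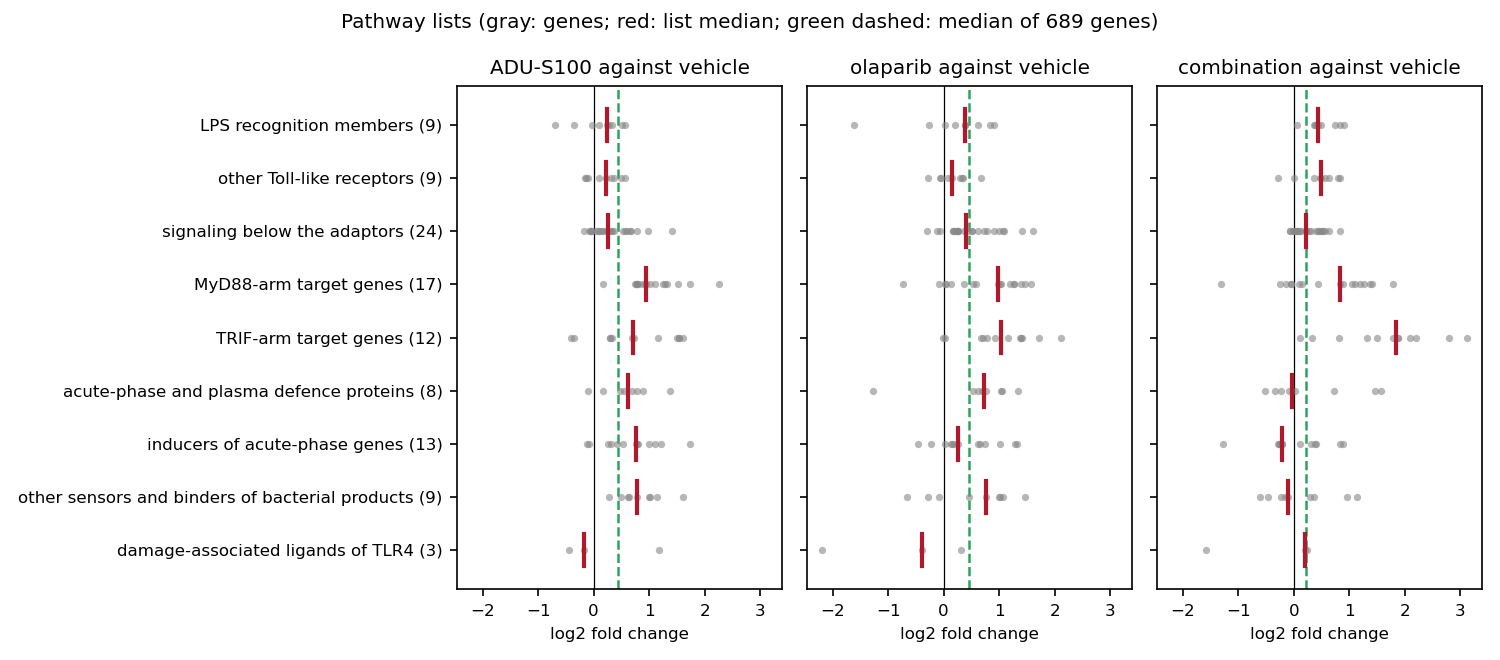
Log2 fold changes against vehicle for the genes of each pathway list (gray points), with the list median (red) and the median of 689 genes (green dashed). Numbers in parentheses are genes tested. The TRIF-arm targets have a median of 1.84 in the combination, and the 9 LPS recognition genes one of 0.45.

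Markers of cell types that can express these genes were counted in the same tumors. The 10 macrophage and monocyte markers summed to between 3551 and 15810 in vehicle, 7723 and 20351 in ADU-S100, 7176 and 10113 in olaparib and 7171 and 8899 in combination tumors. The groups overlapped, and Lyz2, the macrophage lysozyme gene, made up much of the sum. In the combination 4 of 10 markers were positive with a median of -0.09. Their summed log2 level had an r of -0.32 with Cd14, -0.29 with Lbp and -0.43 with Tlr4 (-0.24, 0.12 and -0.08 after same-median scaling). The 7 neutrophil markers were all positive in the combination, with a median of 0.97 beside 0.22 over all genes. They were also all positive under ADU-S100 (median 1.18 beside 0.44), and 6 of 7 were positive under olaparib (median 0.97 beside 0.45). They summed to between 1605 and 1797 in the combination, 1069 and 2226 in vehicle, 1952 and 7776 in ADU-S100 and 723 and 3411 in olaparib tumors. The summed neutrophil markers had an r of -0.30 with Cd14, which was 0.35 after same-median scaling.

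The 3 epithelial markers were positive in the combination with a median of 0.47, and summed to between 17779 and 20694 there, 10802 and 21498 in vehicle, 11861 and 19063 in ADU-S100 and 12324 and 22177 in olaparib tumors. Their r was 0.39 with Lbp, 0.36 with Cd14, 0.38 with Tlr4 and -0.07 with Tlr2. After same-median scaling these values were 0.70, 0.78, 0.78 and 0.46. All 7 fibroblast and matrix markers were negative in the combination (median -1.14) and under olaparib (median -1.40). They summed to between 15526 and 30038 in combination and 7209 and 30935 in olaparib tumors, against 18395 to 94232 in vehicle and 36733 to 60604 in ADU-S100 tumors, with an r of 0.02 with Lbp (0.24 after same-median scaling). All 8 endothelial markers were negative in the combination (median -0.85). They summed to 33964 in olaparib tumor 1517 and to between 855 and 12698 in the other 11 tumors. The 5 general leukocyte markers summed to between 2321 and 2622 in the combination, 1348 and 2483 in vehicle, 1445 and 3615 in ADU-S100 and 1813 and 2463 in olaparib tumors, and had an r of 0.72 with Tlr2 (0.46 after same-median scaling). The median r of all other genes with Tlr2 was 0.48 as deposited, 0.11 after same-median scaling and 0.34 without tumor 1517, and with Cd14 it was 0.15, 0.16 and 0.11. The 7 T cell markers tested were all positive in the combination (median 1.40), 4 of them without overlap beside 18.4% of all genes. The 8 in the table summed to between 348 and 552 there, 103 and 242 in vehicle, 181 and 453 in ADU-S100 and 146 and 734 in olaparib tumors, with an r of 0.58 with Cd14 and 0.76 with Tlr2. These values were 0.26 and 0.33 after same-median scaling, and 0.58 and 0.66 without tumor 1517. Of the 4 dendritic cell markers, 3 were positive in the combination (median 0.62). Of these, Itgax, the integrin CD11c, was counted at 145 to 222 in the combination and 63.0 to 95.2 in vehicle tumors. The 4 summed to between 197 and 349 in the combination, 110.1 and 169.5 in vehicle, 128 and 242 in ADU-S100 and 148 and 398 in olaparib tumors, with an r of 0.63 with Cd14 and 0.89 with Tlr2. After same-median scaling they were 0.63 and 0.80, and without tumor 1517, which had both the highest dendritic cell sum and the highest Tlr2, 0.64 and 0.85. The 6 B cell markers summed to at most 325 in any tumor, and 1 passed the filter. No marker of these lists was at the floor of the table in all 3 tumors of a group, and the part of cell composition in the members' differences was not tested. The defining genes of hepatocytes and adipocytes listed for this purpose were not analysed here.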

How the data were processed

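Normalized mRNA counts of 750 genes in 12 tumors (4 groups of 3, grouped by the labels' agent and tumor number) were analysed. Per the labels and the study's methods, the authors counted nCounter panel probes and used nSolver to check quality, correct for background and scale each tumor to positive controls and housekeeping genes (by their geometric mean). Raw counts under the negative controls were dropped. The deposited values are such a signal on a linear scale. Other measurement columns left unused numbered 0. The members and all gene lists were chosen with earlier results of these data known.

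The counts before scaling were recovered as whole multiples of 1 step per tumor (tolerance 0.01, at least 99.87% of values whole, 12 values at the floor of 1). Where a tumor's lowest value above the floor was not a single count, the step was inferred as the largest of which all of its lowest values were whole multiples. They are read as probe counts without amplification, so that low counts carry counting error, highest in tumor 1517.

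The main fit was limma 3.58.1 (R 4.3.3) on log2(value + 1), 1 mean per group over all 12 tumors, with Benjamini-Hochberg adjustment over the 689 genes kept and a threshold of 0.05. edgeR 4.0.16 was run on the recovered counts. Both were tested on simulated data. Tumors are from separate mice bearing transplants of 1 model, and p-values measure the spread between them. Fold changes on this scale understate changes of low genes.

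Named besides the members were the 5 genes with the highest and the 2 with the lowest Pearson r with Lbp, the 3 with the highest r with Cd14 and Tlr4, and the extremes of each list. Some genes that this rule names are not reported here. Lcn2, Saa1, Il6 and Epcam were chosen after their values were seen. Alternatives were no filter or a filter at 50, a pseudocount of 10, same-median and quantile scaling, a variance trend with intensity, separate fits for each pair of groups, the methods' t-test with each of 2 adjustments, the number series as a block, edgeR with each of 2 scalings, the scaling factor as a covariate, subtraction of a background per tumor (the median of the 30 lowest genes), and leaving out each tumor in turn. Gene names were matched to RefSeq, where 736 symbols were current. Figures were drawn with matplotlib 3.10.9.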

Additional observations from a re-analysis of the deposited data

Results flagged for a closer look

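For 5 members, the effect of 1 drug ran one way in every tumor without the other drug and the opposite way in every tumor with it, each tumor measured from the mean of its comparison group. The same held for 31.1% of the 689 genes (6.39% for olaparib, 29.0% for ADU-S100). These opposite directions were not tested gene by gene, and over all genes limma called 0 for the interaction. For Lbp, olaparib tumors stood at -1.62 from vehicle (tumors from -2.44 to -0.37), and combination tumors at 1.53 from ADU-S100 (1.21 to 1.84). For Tlr4, ADU-S100 tumors stood at -0.36 from vehicle (-0.76 to -0.04) and combination tumors at 0.70 from olaparib (0.50 to 1.0). For Tirap, the olaparib effect was 0.62 without (0.05 to 1.44) and -0.45 with ADU-S100 (-0.49 to -0.43), and the ADU-S100 effect was 0.52 without (0.35 to 0.63) and -0.55 with olaparib (-0.58 to -0.53). For Ticam1, the ADU-S100 effect was 0.33 without (0.16 to 0.53) and -0.47 with olaparib (-0.75 to -0.09). For Ticam2, the olaparib effect was 0.20 without (0.01 to 0.50) and -0.15 with ADU-S100 (-0.34 to -0.05). With the log2 scaling factor as a covariate, the ADU-S100 effects were -0.24 and 0.26 for Ticam1 and 0.12 and -0.05 for Tirap, and the olaparib effects were 0.15 and -0.01 for Tirap and -0.06 and 0.09 for Ticam2. Those of Lbp were then -1.08 and 1.02, and those of Tlr4 -0.30 and 0.62. With each tumor at the same median, the opposite directions held for Lbp and Tirap (olaparib) and for Tlr4 and Myd88 (ADU-S100), beside 28.4% of all genes. The differences from vehicle were then -0.16 for Ticam1 under ADU-S100 and -0.16 for Ticam2 under olaparib, with negative values also under quantile and TMM scaling. The values of Ticam1 and Tirap rest in part on olaparib tumor 1517. Without it, the combination stood at 0.17 from olaparib for Ticam1 and at -0.14 for Tirap.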

How the results depend on the processing

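Over 26 alternative settings, the 72 member fold changes gave 1827 values, of which 1760 moved by less than 1 SD between tumors and 67 by more. The sign changed in 109 values, in folds of at most 0.80 as reported, and 38 folds kept their sign throughout. The Lbp folds between groups kept their sign under every setting run, from 0.38 (edgeR, TMM) to 1.09 (without vehicle 1269) for the combination against vehicle and from -2.24 (without olaparib 1521) to -1.08 (scaling factor as covariate) for olaparib against vehicle. The limma count of 0 genes became 2 for the combination against vehicle in a fit on the compared groups, 3 with the methods' t-test and Benjamini-Hochberg adjustment, and 4 with the scaling factor as a covariate. It became 1 for the combination against ADU-S100 with a pseudocount of 10, with a filter at 50, with same-median scaling and with an intensity trend. The cause was not tested. Leaving out each tumor gave 0 to 55 genes for olaparib against vehicle, 0 to 54 for the combination against olaparib and 0 to 86 for the interaction, the highest each without olaparib 1521, which leaves that group 2 tumors. It gave 0 to 1 for the combination against ADU-S100 (1 without ADU-S100 1506) and 0 for the other comparisons. The log2 ratio of Lbp to the 8 genes ranged from 4.58 to 4.95 for vehicle, 3.29 to 4.23 for ADU-S100, 2.10 to 3.23 for olaparib and 4.99 to 5.27 for the combination when a tumor was left out. The comparisons rest on 3 tumors per group, with 5 to 220 counts behind the members in tumor 1517. The size of difference that could be called was not determined. In the main fit even the Lbp difference of 2.45 between combination and olaparib tumors was not called. No paired analysis was possible because the groups share no tumor numbers.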
